A study of Homo sapiens with 15 samples.

Results

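Glycolysis and pentose phosphate genes were compared between undifferentiated cells, cells after adipogenic differentiation, and such cells later kept in medium conditioned by tumour cells. The set was a written list of 33 gene symbols, named for their place in the pathways, and 30 of them were among the 17687 genes measured. It was chosen with earlier results of these data known. SLC16A1, SLC16A3 and PFKFB4 were not analysed here. Each of the 30 genes was read by 1 probe set.

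The cells were ASC52, a human adipose-derived mesenchymal stem cell line from ATCC immortalised with the telomerase gene hTERT, so all groups share the background of this line. MSC were undifferentiated cells seeded in MesenPRO RS medium. MA were cells that entered StemPRO adipogenesis medium 3 days after seeding, stayed in it for 14 days, and were then held for 7 days in RPMI with 10% fetal bovine serum. DED were cells differentiated in the same way and then held for 7 days in RPMI with 10% fetal bovine serum that MDA-MB-231 cells, from a human breast tumour line, had conditioned. The sources used here do not state when or in which medium the MSC cells were harvested. Where MSC is compared with MA or DED, differentiation, medium and time in culture therefore cannot be told apart. There were 5 arrays in each group. No label ties them to separate cultures, so the p-values reflect array-to-array spread that may be only technical.

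Glycolysis splits glucose into pyruvate in the cytosol, first spending ATP to make fructose bisphosphate and then earning ATP and NADH in the steps from triose phosphate to pyruvate. Lactate dehydrogenase turns pyruvate into lactate and restores NAD. The pentose phosphate pathway branches from glucose phosphate: its oxidative arm makes NADPH, which fat cells use for fatty acid synthesis, and its non-oxidative arm exchanges sugar phosphates with glycolysis and supplies ribose phosphate for nucleotides. In fat cells glycolysis also supplies the glycerol phosphate backbone of triglycerides.

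All values are log2 intensities as deposited after RMA, which normalizes between arrays, so a difference of 1 is a 2-fold difference. A level is compared only between groups for the same gene, since probe sets of different genes are not on a common scale. As a guide to background, the median over 612 negative control probe sets was 4.80 and their 95th percentile was 8.31. All 3 group means lay under 8.31 for 10 of the 30 genes, namely HK1, HK2, GPI, PFKFB2, PFKFB3, FBP1, ENO2, PGLS, PGD and RPIA. For these, and for SLC2A1 and ALDOC, which straddled that value, differences stay on the log2 scale and their size depends on background. Rose and fell mean a limma adjusted p under 0.05 over all 17687 genes.

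The labelled cell types were checked against marker lists. All 10 adipocyte markers rose from MSC to MA and 9 of them fell from MA to DED, and ADIPOQ, the gene of the fat cell hormone adiponectin, was at 3.91 ± 0.36 (SD, n = 5) in MSC, 15.15 ± 0.08 in MA and 12.19 ± 1.04 in DED. Among 8 markers of dividing cells 7 fell from MSC to MA and 8 from MA to DED. Of 9 mesenchymal stem cell markers 1 rose and 5 fell from MSC to MA, 2 rose and 2 fell from MA to DED, and in DED against MSC 1 was higher and 7 were lower. Of 10 epithelial markers, which carried-over carcinoma cells could bring, 9 had a group mean under 8.31 in every group. The exception was KRT8, at 8.94 in MSC, 8.99 in MA and 9.16 in DED. In DED against MA 0 of the 10 passed the limma test and 1 had an unadjusted p under 0.05, and in DED against MSC ESRP1 passed (0.48, SE 0.14, adjusted p = 0.008). Their mean over the list ran from 5.47 to 5.66 in MSC, 5.50 to 5.56 in MA and 5.55 to 5.65 in DED, and 5 of the 10, EPCAM, CDH1 and KRT18 among them, lay under the negative control median in each group. MDA-MB-231 is itself known as a mesenchymal-like line with little CDH1, so a low CDH1 says little about carry-over. How well the other markers would show such cells was not examined, and the part of carry-over in the results was not tested. Within DED, array 1 had the highest adipocyte marker mean (10.67 against 9.38 to 9.69 in the other 4 arrays), and the lowest correlation between DED arrays over all genes was 0.982.

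From MSC to MA the genes moved both ways. Among genes of the ATP-spending steps and their control HK2, PFKL, PFKFB3, ALDOA and ALDOC rose, HK1 and PFKP fell and 5 of 12 did not pass the test. Of 6 genes of the ATP-earning steps PGAM1, ENO1 and PKM fell and 3 did not pass. PGD, TKT and TALDO1 of the pentose phosphate pathway rose, as did PGM1 and LDHB, and PGM2 fell. Of 30 genes 16 (53.3%) passed the test, against 33% of all genes: 10 (33.3%) rose and 6 (20.0%) fell, while over all genes 15.4% rose and 17.6% fell. The median log2 difference was -0.01 over the 30 genes and -0.002 over all genes. The 5 arrays of MA did not overlap those of MSC in 15 of the 30 (27.0% of all genes), 10 higher (12.4%) and 5 lower (14.6%).

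From MA to DED 13 of 30 genes (43.3%) passed the test, against 25.9% of all genes, and falls outnumbered rises. HK2, GPI, PFKL, ALDOA, ALDOC, TPI1, PGAM1, LDHB, PGD, TKT and TALDO1 fell, which is 11 of 30 genes (36.7%) where 13.0% of all genes fell. SLC2A3 and RPE rose, which is 2 of 30 (6.67%) where 12.9% of all genes rose. With dim genes left out, 2351 of 13266 genes rose and 2333 fell, both larger shares of all genes than those just given. The median was -0.22 against 0.018 over all genes, and the arrays did not overlap in 11 of the 30 (18.1% of all genes), 2 higher (8.61%) and 9 lower (9.48%). The count of rises was 4 without DED array 1, since SLC2A1 (0.96, SE 0.26, adjusted p = 0.0097) and HK1 (0.63, SE 0.21, adjusted p = 0.029) then passed, and the count of falls was 13 without DED array 3, since PFKP and PKM then passed.

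DED was also set against MSC, a comparison that shares its arrays with both others, as the first comparisons share the MA arrays. Here 14 of 30 genes (46.7%) passed, against 33.4% of all genes. SLC2A1, SLC2A3, HK2, PGM1, PFKFB3 and TALDO1 were higher in DED, 6 of 30 genes (20.0%, against 17.1% of all genes). PGM2, GPI, PFKL, PFKP, TPI1, PGAM1, ENO1 and PKM were lower, 8 of 30 (26.7%, against 16.4%). With dim genes left out, 2939 of 13266 genes were higher and 2840 lower, both larger shares of all genes than those just given. The share that was higher then exceeded the 20.0% of the 30 genes, while the share that was lower stayed under their 26.7%. The median was -0.14 against 0.028 over all genes, and the arrays did not overlap in 11 of 30 (25.1% of all genes), 5 higher (12.4%) and 6 lower (12.7%).

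**Figure D1:**
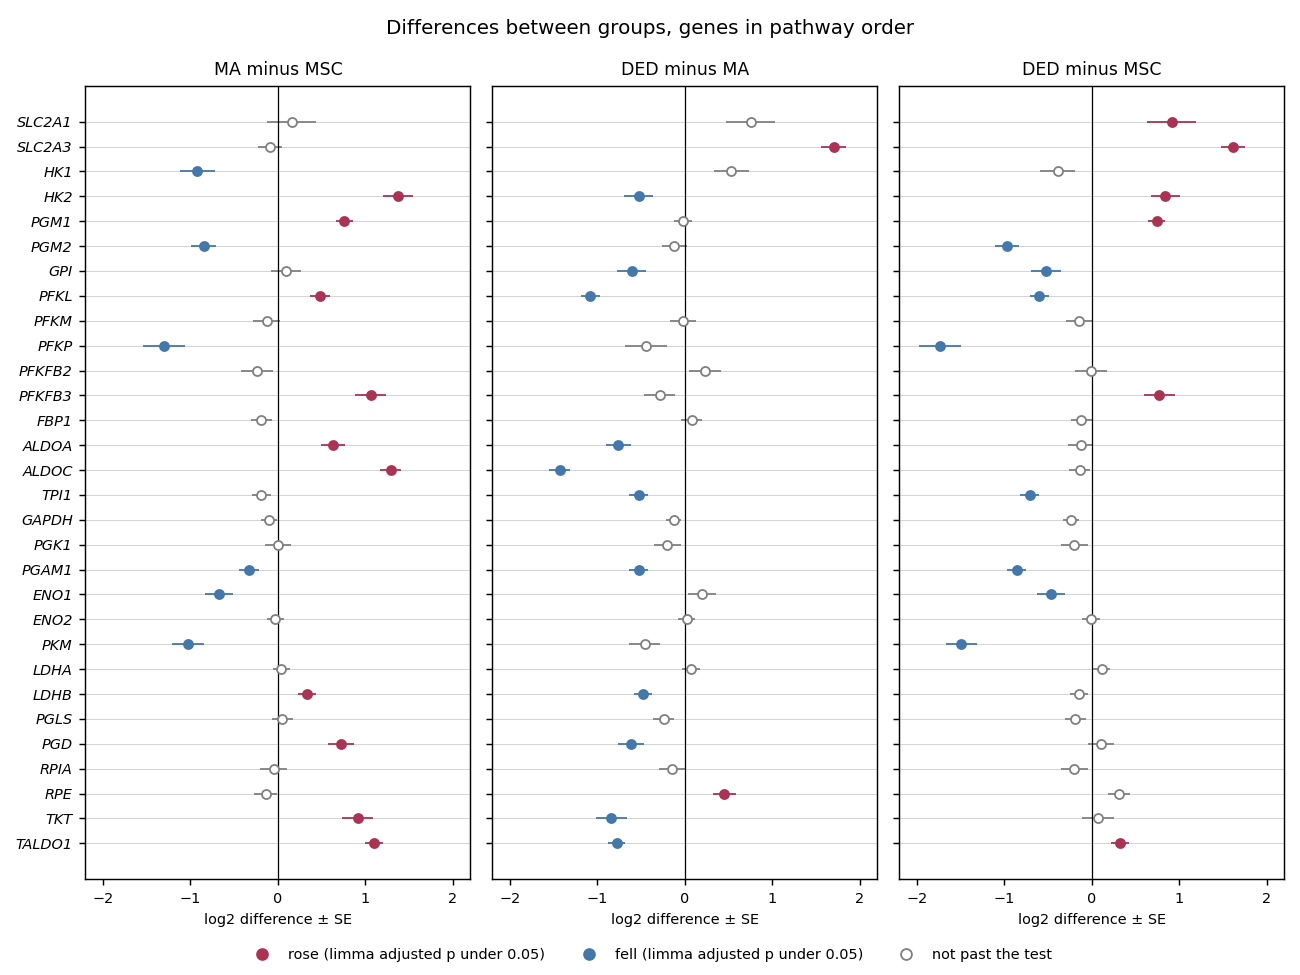
Log2 difference ± SE of each of the 30 genes (rows, in pathway order from glucose import to the non-oxidative pentose phosphate steps) in MA minus MSC, DED minus MA and DED minus MSC, with 5 arrays in each group. Filled points passed the limma test: 10 rose and 6 fell in the left panel, 2 rose and 11 fell in the middle panel, and 6 rose and 8 fell in the right panel.

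Glucose enters these cells through carriers of the SLC2A family. SLC2A3 encodes GLUT3, a high-affinity carrier best known from neurons. Its level was 9.35, 9.33, 9.25, 9.34 and 9.49 in MSC arrays 1 to 5, 9.33, 8.89, 9.33, 9.45 and 9.29 in MA arrays 1 to 5 and 10.76, 10.73, 11.55, 10.95 and 10.82 in DED arrays 1 to 5. All DED arrays lay above every MSC and MA array, and DED array 3 stood highest. The level was 3.26-fold higher in DED than in MA (log2 difference 1.70, SE 0.14, adjusted p = 2.1e-08) and 3.05-fold higher than in MSC (1.61, SE 0.14, adjusted p = 1.8e-08). Without DED array 3 the difference from MA was 1.56 (SE 0.12, adjusted p = 6e-09). MA and MSC overlapped (-0.09, SE 0.14, adjusted p = 0.69).

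SLC2A14, a close copy of SLC2A3 in the same chromosome region, was at 10.41 ± 0.14 in MSC, 10.34 ± 0.18 in MA and 12.01 ± 0.42 in DED. Its difference between DED and MA was 1.66 (SE 0.16, adjusted p = 1.2e-07), close in size to that of SLC2A3, and DED array 3 was again highest at 12.68. Probe sequences were not used here, so the 2 genes cannot be told apart and the rise is that of SLC2A3, SLC2A14 or both.

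SLC2A1 encodes GLUT1, the carrier of basal glucose uptake in most cells. It read 7.89, 8.82, 7.20, 7.74 and 7.88 in MSC, 8.11, 8.04, 8.12, 8.23 and 7.83 in MA and 7.95, 8.54, 9.85, 9.03 and 8.69 in DED. The MA arrays were close together while those of MSC and DED were spread, and DED arrays 2 to 5 lay above every MA array while array 1 lay within them. The difference between DED and MA was 0.75 (SE 0.28, adjusted p = 0.056). It was 0.49 (adjusted p = 0.17) without DED array 3. Against MSC it was 0.91 (SE 0.28, adjusted p = 0.016), a call lost without MSC array 3 (adjusted p = 0.053). Within arrays SLC2A3 moved by more than SLC2A1 between MA and DED: the SLC2A3 minus SLC2A1 difference ran from 0.85 to 1.46 in MA and 1.70 to 2.81 in DED (exact permutation test, two-sided, p = 0.0079, adjusted p = 0.016 over 30 pair tests). The smallest p that 5 against 5 arrays allow is 0.0079. The mean of SLC2A1 in MA (8.07) lay under 8.31, so the size of this unequal change depends on background. The SLC2A3 side of it may also hold signal of SLC2A14.

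Hexokinases trap glucose in the cell by adding a phosphate. HK2, the insulin-responsive isoform of muscle and fat, read 6.67, 6.55, 6.41, 5.86 and 6.39 in MSC, 7.61, 7.78, 7.83, 8.23 and 7.30 in MA and 7.66, 6.97, 7.18, 7.14 and 7.15 in DED. Every MA and DED array lay above every MSC array, and the DED and MA ranges overlapped through DED array 1 and MA arrays 1 and 5. HK2 rose in MA by 1.37 (SE 0.17, adjusted p = 2.3e-06) and was lower in DED than in MA (-0.53, SE 0.17, adjusted p = 0.028). That fall lost its call without any 1 of MA arrays 2, 3 and 4 and DED arrays 2, 4 and 5 (adjusted p from 0.053 to 0.089). HK1, the isoform of most tissues, was at 5.72 ± 0.22 in MSC, 4.80 ± 0.45 in MA and 5.33 ± 0.40 in DED. It was lower in MA (-0.92, SE 0.20, adjusted p = 0.0012), with MA at the median of the negative controls and with ranges that overlapped through MA array 4 (5.47). Between DED and MA the difference was 0.53 (SE 0.20, adjusted p = 0.062).

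Phosphoglucomutases connect these sugars with glycogen and with pentose phosphates. PGM1, which exchanges the glucose phosphates of glycogen and glycolysis, was at 12.09 ± 0.07 in MSC, 12.85 ± 0.07 in MA and 12.83 ± 0.19 in DED. It rose 1.70-fold in MA (0.76, SE 0.10, adjusted p = 5.3e-06), and its difference between DED and MA had a 95% interval from -0.24 to 0.19. PGM2, which acts mainly on pentose phosphates, was at 9.80 ± 0.10 in MSC, 8.94 ± 0.29 in MA and 8.82 ± 0.22 in DED. It was 1.81-fold lower in MA than in MSC (-0.85, SE 0.14, adjusted p = 4.9e-05). GPI, which converts glucose phosphate to fructose phosphate, was at 8.12 ± 0.36 in MSC, 8.21 ± 0.16 in MA and 7.60 ± 0.31 in DED. All DED arrays lay below all MA arrays (-0.61, SE 0.17, adjusted p = 0.009). DED and MSC overlapped in GPI (-0.52, SE 0.17, adjusted p = 0.019). That call was lost without any 1 of MSC arrays 2 and 5 and DED array 5 (adjusted p from 0.057 to 0.065).

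Phosphofructokinase makes the committed step of glycolysis and is built from 3 kinds of subunit. The liver-type subunit PFKL read 10.30, 10.42, 9.97, 10.24 and 10.46 in MSC, 10.75, 10.52, 10.93, 10.72 and 10.88 in MA and 9.63, 9.68, 9.78, 9.76 and 9.54 in DED. The 3 groups did not overlap, with MA highest and DED lowest. PFKL rose 1.40-fold in MA (0.48, SE 0.11, adjusted p = 0.0022) and was 2.12-fold lower in DED than in MA (-1.08, SE 0.11, adjusted p = 3.6e-07) and 1.52-fold lower than in MSC (-0.60, SE 0.11, adjusted p = 0.00027).

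The platelet-type subunit PFKP went another way. It read 13.37, 13.97, 13.19, 13.42 and 13.55 in MSC, 12.13, 12.11, 11.93, 12.88 and 11.93 in MA and 11.67, 11.43, 12.77, 11.79 and 11.13 in DED, so that every MSC array lay above all others. PFKP was 2.47-fold lower in MA than in MSC (-1.30, SE 0.24, adjusted p = 0.00023) and 3.34-fold lower in DED than in MSC (-1.74, SE 0.24, adjusted p = 7.7e-06). DED minus MA was -0.44 (SE 0.24, adjusted p = 0.21), and -0.69 (SE 0.19, adjusted p = 0.012) without DED array 3, which read 12.77 where the other DED arrays ran up to 11.79. The muscle-type subunit PFKM passed the test in no comparison. The 95% interval of PFKM ran from -0.44 to 0.19 for MA minus MSC and from -0.33 to 0.29 for DED minus MA.

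PFKFB3, PFKFB2 and FBP1, which set phosphofructokinase activity or oppose it, were dim. PFKFB3 makes a fructose bisphosphate that stimulates phosphofructokinase and is not the product of that enzyme. PFKFB3 was at 4.79 ± 0.23 in MSC, just under the negative control median, 5.84 ± 0.44 in MA and 5.55 ± 0.28 in DED. It rose in MA by 1.06 (SE 0.18, adjusted p = 0.00012), and DED was above MSC by 0.77 (SE 0.18, adjusted p = 0.0025). PFKFB2, an isoform of heart and other tissues, ran from 4.99 to 6.04 over all arrays. FBP1, the gluconeogenic enzyme that reverses the phosphofructokinase step, ran from 4.49 to 5.11, at the negative control median. Neither passed the test in any comparison.

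Aldolases cleave fructose bisphosphate into trioses. ALDOC, known as the brain isoform, read 8.38, 8.44, 8.41, 8.38 and 8.15 in MSC, 9.57, 9.51, 9.95, 9.63 and 9.54 in MA and 8.53, 8.13, 8.13, 8.05 and 8.20 in DED. Every MA array lay above every array of the other groups. ALDOC rose in MA by 1.29 (SE 0.12, adjusted p = 2.3e-08), and DED was below MA (-1.43, SE 0.12, adjusted p = 1.1e-08), the largest fall among the 30 genes in that comparison. DED minus MSC was -0.14, with a 95% interval from -0.39 to 0.10. ALDOA, the abundant isoform of muscle and most cells, read 12.80, 12.92, 12.36, 12.50 and 12.63 in MSC, 13.25, 13.36, 13.22, 13.23 and 13.30 in MA and 12.51, 12.22, 12.94, 12.75 and 12.15 in DED, and again every MA array was above all others. It rose 1.55-fold in MA (0.63, SE 0.14, adjusted p = 0.0017) and was 1.69-fold lower in DED than in MA (-0.76, SE 0.14, adjusted p = 0.00045). TPI1, which interconverts the trioses, was at 14.44 ± 0.14 in MSC, 14.25 ± 0.05 in MA and 13.72 ± 0.20 in DED. It was 1.44-fold lower in DED than in MA (-0.53, SE 0.11, adjusted p = 0.0011) and 1.64-fold lower than in MSC (-0.71, SE 0.11, adjusted p = 2.9e-05).

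Promoter sequences are shown for 4 genes that moved differently. HK2 and ALDOC rose in MA and were lower in DED than in MA, PKM fell in MA, and LDHA passed the test in no comparison. The windows hold 250 bases before and 50 after an annotated start (RefSeq, GRCh38.p14) and are written 5′ to 3′ on the strand of the gene. For HK2 it is chr2:74834920-74835219 (plus strand), for ALDOC chr17:28576846-28577145 (minus), for LDHA chr11:18394313-18394612 (plus) and for PKM chr15:72231141-72231440 (minus). HK2 and LDHA have 2 windows each: the HK2 window shown is the one that holds CACGTG, and the other has ACGTG at 2 places too, while the LDHA window not shown has it at 0 places. Capitals mark ACGTG on either strand (CACGT on the other), 1 form of the core letters of hypoxia response elements. GCGTG, the other form, is not in capitals.
HK2: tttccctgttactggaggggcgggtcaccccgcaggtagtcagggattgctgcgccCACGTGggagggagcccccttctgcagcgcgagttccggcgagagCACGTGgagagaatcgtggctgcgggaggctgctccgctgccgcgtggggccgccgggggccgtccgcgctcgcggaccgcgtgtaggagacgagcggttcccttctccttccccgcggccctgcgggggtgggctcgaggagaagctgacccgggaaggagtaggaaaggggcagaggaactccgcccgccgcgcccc
ALDOC: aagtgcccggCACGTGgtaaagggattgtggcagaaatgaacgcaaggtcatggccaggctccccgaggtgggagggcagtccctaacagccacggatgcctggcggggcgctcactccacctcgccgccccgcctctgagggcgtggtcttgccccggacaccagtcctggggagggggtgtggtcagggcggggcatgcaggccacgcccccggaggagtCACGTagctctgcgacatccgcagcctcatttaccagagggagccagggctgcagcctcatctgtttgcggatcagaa
LDHA: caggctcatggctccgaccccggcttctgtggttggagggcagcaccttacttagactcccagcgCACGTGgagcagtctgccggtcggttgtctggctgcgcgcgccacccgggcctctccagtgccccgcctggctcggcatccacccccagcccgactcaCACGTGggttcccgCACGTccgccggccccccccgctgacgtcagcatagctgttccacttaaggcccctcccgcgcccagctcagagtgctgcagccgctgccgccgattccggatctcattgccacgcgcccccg
PKM: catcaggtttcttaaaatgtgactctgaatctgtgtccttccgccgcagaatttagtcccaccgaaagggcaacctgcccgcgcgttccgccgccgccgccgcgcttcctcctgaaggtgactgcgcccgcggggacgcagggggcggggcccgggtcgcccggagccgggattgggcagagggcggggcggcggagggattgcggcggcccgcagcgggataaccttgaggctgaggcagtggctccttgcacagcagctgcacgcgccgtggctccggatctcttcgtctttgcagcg
The capitals stood at 2 places in the HK2 window shown, 2 in ALDOC, 3 in the LDHA window shown and 0 in PKM. CACGTG, the letters of an E-box that carbohydrate response factors are known to bind, contains ACGTG on both strands and accounts for both places in HK2, 1 in ALDOC and 2 in LDHA. So the letters occurred in genes whose transcripts moved and in LDHA, whose transcript did not pass the test. Windows were held for 28 of the 30 genes, and 15 of these (53.6%) had ACGTG in at least 1 window, against 24.9% of the 27305 genes with windows. For CACGTG it was 7 of 28 against 8.77% of genes. GCGTG stood in 18 of 28 (64.3%) against 40.6% of genes. Counted by window, over 51 windows of these genes and 35116 in all, the gaps were smaller. ACGTG stood in 37.3% against 21.4%, CACGTG in 13.7% against 7.26% and GCGTG in 41.2% against 36.5%. The windows shown held GCGTG 2 times in HK2, 2 in ALDOC, 1 in LDHA and 1 in PKM, on either strand. Several genes have more than 1 window and the base composition of the sets was not matched, so these shares are a description.

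The ATP-earning steps run from glyceraldehyde phosphate to pyruvate. PKM, pyruvate kinase, which makes the last ATP of glycolysis, read 12.73, 12.68, 12.23, 12.63 and 12.65 in MSC, 11.66, 11.64, 11.57, 11.39 and 11.50 in MA and 10.66, 10.93, 11.96, 11.14 and 10.77 in DED. All MSC arrays lay above all others, and DED array 3 lay above every MA array while the other 4 lay below every MA array. PKM was 2.04-fold lower in MA than in MSC (-1.03, SE 0.18, adjusted p = 0.00014) and 2.81-fold lower in DED than in MSC (-1.49, SE 0.18, adjusted p = 1.5e-06). DED minus MA was -0.46 (SE 0.18, adjusted p = 0.074), and without DED array 3 it was -0.68 (SE 0.13, adjusted p = 0.00045). The spliced forms PKM1 and PKM2 cannot be told apart with this probe set.

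ENO1, the ubiquitous enolase, read 15.72, 15.84, 15.61, 15.63 and 15.73 in MSC, 15.13, 15.01, 15.05, 14.92 and 15.06 in MA and 14.73, 14.85, 15.90, 15.42 and 15.29 in DED. The MSC and MA arrays were tight and did not overlap, while the DED arrays spanned from below the MA range to above the MSC range. ENO1 was 1.59-fold lower in MA than in MSC (-0.67, SE 0.16, adjusted p = 0.0027). DED minus MSC was -0.47 (SE 0.16, adjusted p = 0.032), a call lost without any 1 of MSC arrays 1, 2 and 5 and DED arrays 1 and 2 (adjusted p from 0.055 to 0.099). ENO2, the neuronal enolase, stayed under the negative control median with values from 3.41 to 3.76 over all arrays.

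PGAM1, phosphoglycerate mutase, was at 13.44 ± 0.07 in MSC, 13.12 ± 0.14 in MA and 12.59 ± 0.17 in DED, with no overlap between the groups. It was 1.44-fold lower in DED than in MA (-0.53, SE 0.11, adjusted p = 0.00083). The step from MSC to MA was smaller (-0.33, SE 0.11, adjusted p = 0.023). Leaving out any 1 of MSC arrays 2 and 5 and MA arrays 2 and 3 ended that call (adjusted p from 0.05 to 0.064). GAPDH, glyceraldehyde phosphate dehydrogenase and a common reference gene, was at 17.52 ± 0.07 in MSC, 17.41 ± 0.04 in MA and 17.28 ± 0.13 in DED, near the highest values of the table. It passed in no comparison, with DED minus MSC at -0.24 (SE 0.09, adjusted p = 0.059; 0.021 without DED array 3). PGK1, phosphoglycerate kinase, was at 9.53 ± 0.25, 9.53 ± 0.13 and 9.33 ± 0.32 in MSC, MA and DED and also passed in none. Beside these falls, the dividing cell markers fell too, with list means of 10.70 to 10.78 in MSC, 8.53 to 8.88 in MA and 6.45 to 7.07 in DED, and their part in the falls was not tested.

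Several of these enzymes, GAPDH, PGK1, PGAM1, ENO1, TPI1, ALDOA, LDHA and LDHB among them, have processed pseudogenes that can share probe sequence, so their levels may include signal of such copies. As bulk samples, the arrays also cannot tell a lower level per cell from fewer cells of a type.

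Lactate dehydrogenase closes anaerobic glycolysis. LDHA, the subunit that prevails where pyruvate is turned into lactate, read 14.82, 15.31, 15.01, 15.03 and 15.16 in MSC, 15.21, 15.02, 15.03, 15.22 and 15.05 in MA and 15.22, 15.17, 15.24, 15.12 and 15.15 in DED. The 3 groups overlapped, and the DED arrays were the closest to each other. The 95% interval was -0.18 to 0.26 for MA minus MSC, -0.14 to 0.29 for DED minus MA and -0.10 to 0.33 for DED minus MSC. LDHB, the subunit that prevails in heart, read 13.07, 13.34, 13.35, 13.36 and 13.07 in MSC, 13.54, 13.66, 13.60, 13.39 and 13.63 in MA and 13.16, 12.94, 13.07, 13.04 and 13.22 in DED, with every MA array above the others. It rose 1.25-fold in MA (0.33, SE 0.10, adjusted p = 0.019; 0.059 without MSC array 1 or 5) and was 1.39-fold lower in DED than in MA (-0.48, SE 0.10, adjusted p = 0.0015). The LDHB minus LDHA difference within arrays ran from -1.83 to -1.36 in MA and -2.23 to -1.93 in DED (exact permutation test, p = 0.0079, adjusted p = 0.016).

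TALDO1 and TKT exchange carbon between the pentose phosphate pathway and glycolysis. TALDO1, transaldolase, read 9.12, 9.24, 9.24, 9.22 and 9.21 in MSC, 10.42, 10.37, 10.30, 10.07 and 10.35 in MA and 9.75, 9.57, 9.56, 9.43 and 9.32 in DED. The 3 groups did not overlap, with DED between the others. TALDO1 rose 2.14-fold in MA (1.10, SE 0.10, adjusted p = 4.5e-08) and was 1.71-fold lower in DED than in MA (-0.78, SE 0.10, adjusted p = 8.7e-06). DED minus MSC was 0.32 (SE 0.10, adjusted p = 0.022; 0.053 and 0.06 without MSC array 1 or DED array 1).

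TKT, transketolase, read 9.90, 10.09, 9.78, 9.50 and 9.50 in MSC, 10.60, 10.67, 10.47, 10.88 and 10.69 in MA and 9.57, 9.30, 10.55, 9.86 and 9.85 in DED. MA lay above MSC throughout, and DED array 3 alone among the DED arrays reached the MA range. TKT rose 1.88-fold in MA (0.91, SE 0.18, adjusted p = 0.00044) and was 1.79-fold lower in DED than in MA (-0.84, SE 0.18, adjusted p = 0.0014). The 95% interval of DED minus MSC ran from -0.30 to 0.45.

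PGD, the NADPH-making phosphogluconate dehydrogenase, was at 5.79 ± 0.22 in MSC, 6.51 ± 0.17 in MA and 5.89 ± 0.34 in DED, and every MA array lay above all others. It rose in MA by 0.72 (SE 0.15, adjusted p = 0.00078), and DED was below MA (-0.62, SE 0.15, adjusted p = 0.004). PGLS, which opens the lactone before PGD acts, was at 8.12 ± 0.11, 8.17 ± 0.10 and 7.93 ± 0.28 in MSC, MA and DED and passed in no comparison. RPE, the epimerase of the pentose phosphates, was at 10.88 ± 0.10 in MSC, 10.74 ± 0.19 in MA and 11.19 ± 0.25 in DED. It rose 1.36-fold from MA to DED (0.45, SE 0.13, adjusted p = 0.013) with no overlap, although DED array 1 (10.89) lay next to the highest MA array (10.88). RPIA, the ribose phosphate isomerase, ran from 5.61 to 6.67 over all arrays and passed in no comparison.

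**Figure D2:**
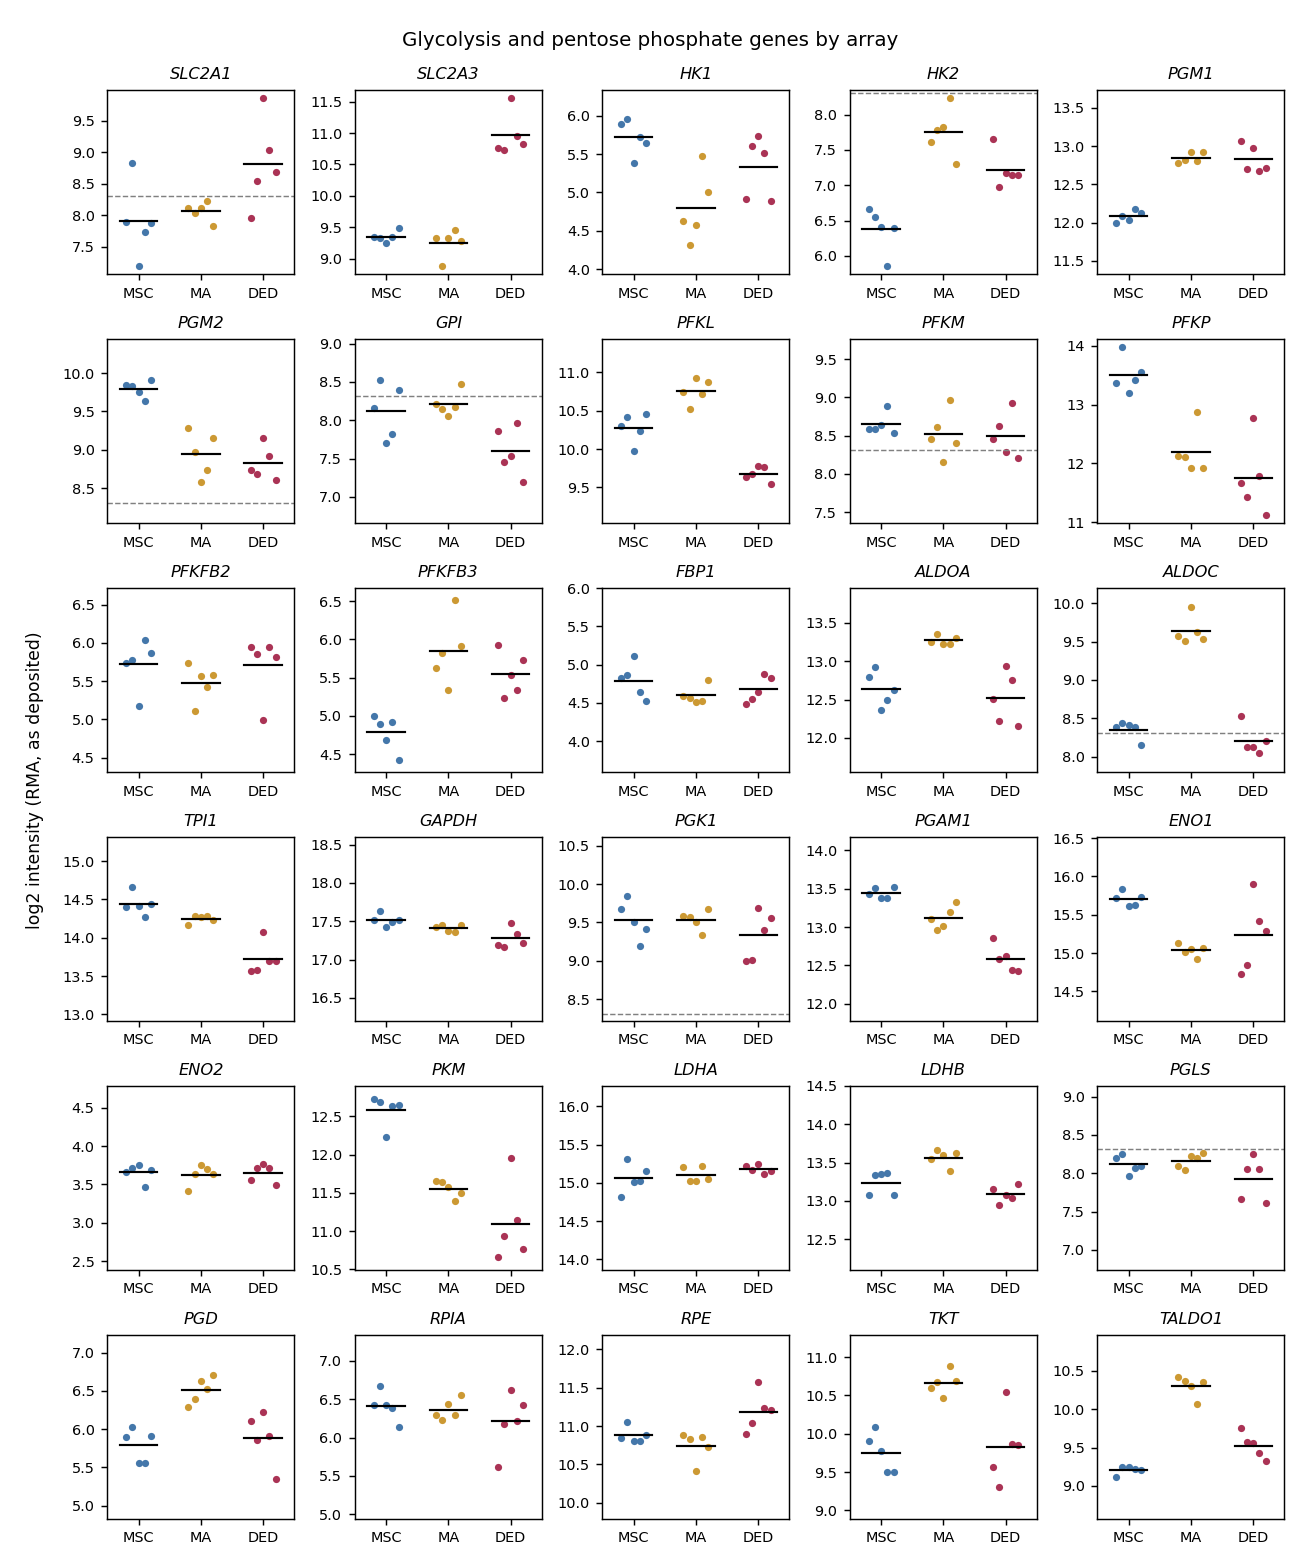
Log2 intensity of each of the 30 genes in every array, with MSC, MA and DED on the x axis, 5 points and a mean line for each group, and a dashed line at 8.31, the 95th percentile of negative controls, where it falls in the panel. ALDOC, ALDOA, PGD and TALDO1 have all MA points above all others, SLC2A3 has all DED points above all others, and PFKP and PKM have all MSC points above all others.

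The DED arrays differed among themselves in these genes. DED array 3 was the highest of the 5 DED arrays in 19 of 30 genes (63.3%), where it was highest in 25.8% of all genes. DED array 1 was highest in 7 of 30 (23.3%, against 25.8%), and DED array 5 was lowest in 12 (40.0%, against 17.9% of all genes). Among the MSC arrays, array 2 was highest in 17 of 30 (56.7%, against 21.9%). Set against the mean of the MA arrays, the median difference over the 30 genes was 0.06 in DED array 3 and between -0.38 and -0.16 in the other 4. The genes with the widest gap were SLC2A1, at 1.78 above the MA mean in array 3 and -0.12 in array 1, PKM, at 0.41 in array 3 and -0.89 in array 1, and PFKP, at 0.57 in array 3 and -1.07 in array 5. In PFKL, ALDOC, LDHB and TALDO1, by contrast, all 5 DED arrays lay below the MA mean by at least 0.34, and in SLC2A3 all lay above it by at least 1.47. The mean of 17 hypoxia response genes outside glycolysis was also highest in DED array 3, above the 10.64 to 10.88 of the other 4, and that of the dividing cell markers was lowest there (6.45). Their part in the values of array 3 was not tested.

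**Figure D3:**
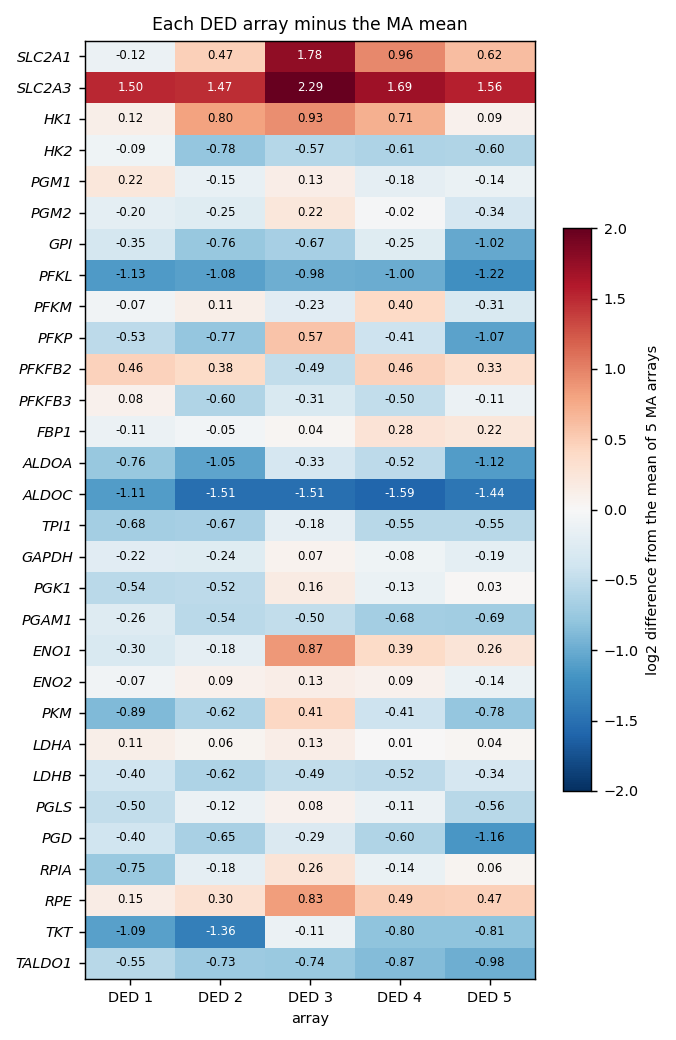
Log2 difference of each DED array (columns) from the mean of the 5 MA arrays for each of the 30 genes (rows), printed in each cell and coloured from blue (lower) to red (higher), with the colour scale ending at 2 in both directions. DED array 3 is redder than the others in SLC2A1, PFKP, ENO1, PKM and RPE, while PFKL and ALDOC are blue and SLC2A3 is red in all 5 columns.

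Isoforms of 1 step were compared by the difference of their log2 values within each array, which shows whether they changed by unequal amounts and not which is more abundant. For 10 pairs and 3 comparisons, 30 exact two-sided permutation tests were run. HK2 gained on HK1 from MSC to MA, with a pair difference of 0.66 ± 0.33 in MSC and 2.95 ± 0.46 in MA (adjusted p = 0.016, the smallest reached), and was at 1.89 ± 0.59 in DED. Both genes lay under 8.31 in all groups, with HK1 in MA at the negative control median, so the size of this difference depends on background. Between DED and MA that pair had an adjusted p of 0.03, and of 0.05 to 0.066 without any 1 of MA arrays 1 to 4 or DED arrays 2 to 5.

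PFKP lost on PFKL from MSC to MA, from 3.22 ± 0.19 to 1.44 ± 0.47, and on PFKM, from 4.85 ± 0.36 to 3.68 ± 0.18 (both adjusted p = 0.016). PFKM gained on PFKL from MA to DED, from -2.24 ± 0.41 to -1.18 ± 0.25 (adjusted p = 0.016). ALDOC rose by more than ALDOA from MSC to MA (-4.29 ± 0.24 to -3.63 ± 0.22) and was lower by more in DED (-4.31 ± 0.42), each with an adjusted p of 0.016. PGM2 lost on PGM1 from MSC to MA, from -2.29 ± 0.15 to -3.91 ± 0.32 (adjusted p = 0.016), with DED at -4.00 ± 0.23. ENO2 against ENO1 and PFKFB3 against PFKFB2 also shifted from MSC to MA (exact permutation test, both adjusted p = 0.016). As with HK2 and HK1, each of these pairs holds a gene at or under the negative control median in at least 1 group. ENO2 lay under it in all 3 groups, at 3.66 in MSC, 3.63 in MA and 3.65 in DED. Its pair therefore reflects the fall of ENO1 and cannot show an unequal change of isoforms.

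**Figure D4:**
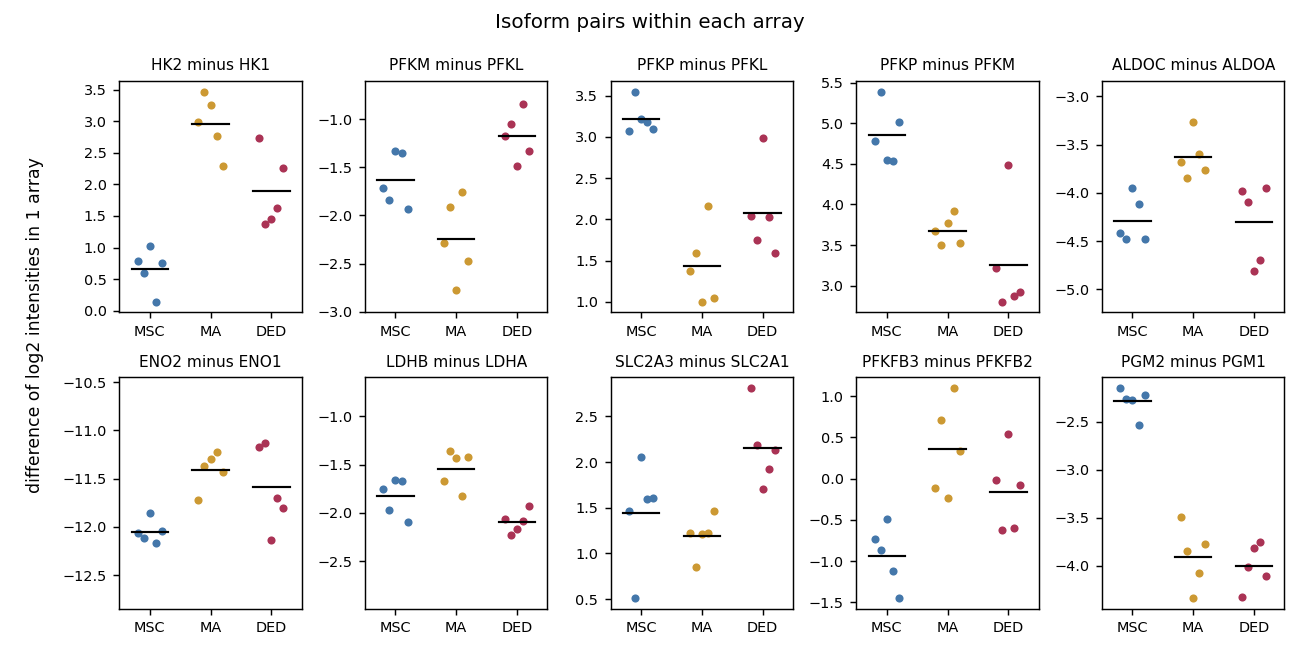
Difference of log2 intensities between the genes of each of 10 isoform pairs within each array, by group, with 5 points and a mean line for each group. HK2 minus HK1 ran from 0.14 to 1.02 in MSC, 2.29 to 3.47 in MA and 1.37 to 2.74 in DED, and PGM2 minus PGM1 from -2.54 to -2.15 in MSC and -4.34 to -3.49 in MA.

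Other genes around these pathways were taken from written lists, whose counts stand beside 15.4% of all genes that rose and 17.6% that fell from MSC to MA, and 12.9% and 13.0% from MA to DED. Of 18 other glycolysis genes 2 rose and 3 fell from MSC to MA, and 0 rose and 2 fell from MA to DED, with medians of -0.06 and 0.10. PFKFB1, a further maker of the phosphofructokinase activator known from liver and muscle, led them: it was at 5.25 ± 0.14 in MSC, 8.95 ± 0.06 in MA and 6.99 ± 0.25 in DED (3.70, SE 0.12, adjusted p = 3.8e-15 for MA minus MSC, and -1.96, SE 0.12, adjusted p = 1.6e-10 for DED minus MA). Of 8 other pentose phosphate genes 2 rose and 1 fell from MSC to MA and 1 fell from MA to DED. PRPS2, which makes the activated ribose for nucleotides, rose by 1.13 (SE 0.11) and was lower in DED than in MA (-1.27, SE 0.11), while its relative PRPS1 was lower in MA than in MSC (-1.78, SE 0.10). H6PD, the glucose phosphate dehydrogenase of the endoplasmic reticulum, rose in MA by 0.90 (SE 0.11).

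Of 16 other sugar and lactate carriers 4 rose and 2 fell from MSC to MA, and 2 rose and 7 fell from MA to DED. SLC2A4, the insulin-responsive carrier GLUT4, was at 7.13 ± 0.42 in MSC, 8.44 ± 0.15 in MA and 7.30 ± 0.33 in DED (-1.15, SE 0.18, adjusted p = 5.8e-05 for DED minus MA), and SLC16A7, the lactate and pyruvate carrier MCT2, rose in MA by 2.58 (SE 0.13). Among 21 genes of pyruvate fate and glycerol phosphate 13 rose and 2 fell from MSC to MA (median 0.60), and 3 rose and 11 fell from MA to DED (median -0.48). GPD1, which makes glycerol phosphate from a glycolytic triose, was at 4.31 ± 0.58 in MSC, 12.45 ± 0.21 in MA and 9.32 ± 0.91 in DED. PDK4, which restrains pyruvate dehydrogenase, rose by 4.83 (SE 0.28) and was lower in DED than in MA (-2.68, SE 0.28).

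Of 17 hypoxia response genes outside glycolysis 7 rose and 4 fell from MSC to MA, and 5 rose and 4 fell from MA to DED. VEGFA, the endothelial growth factor, was at 13.80 ± 0.14 in MSC, 12.62 ± 0.34 in MA and 14.21 ± 0.43 in DED. It was lower in MA than in MSC (-1.18, SE 0.18) and higher in DED than in MA by 1.59 (SE 0.18). DED minus MSC did not pass the test (0.40, SE 0.18). P4HA1, a collagen prolyl hydroxylase, was lower in DED than in MA (-1.31, SE 0.11). Of 11 control factors of glycolysis 6 rose from MSC to MA, and 1 rose and 2 fell from MA to DED. TXNIP, which is induced by glucose and restrains glucose uptake, was at 12.99 ± 0.25 in MSC and 14.64 ± 0.14 in MA, and read 14.06, 10.73, 12.24, 10.86 and 10.53 in DED arrays 1 to 5 (-2.96, SE 0.45, adjusted p = 3.6e-05 for DED minus MA).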

How the data were processed

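The authors deposited log2 intensities of 15 single-colour arrays, which per the submitters' processing notes came from RMA and Transcriptome Analysis Console. The sources used here give no versions, RMA variant or genome build. Because RMA equalises arrays, a change common to most genes would not show. Of 24351 probe sets 17709 carried 1 gene symbol and matched the RefSeq gene table by Entrez identifier. For 20 genes with several, the probe set of highest mean was kept, which left 17687 genes, dim ones included.

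Groups came from the sample titles. The test was limma (version 3.58.1, R 4.3.3; lmFit, eBayes) with a mean for each group over all 15 arrays, two-sided, Benjamini-Hochberg adjusted over the 17687 genes, threshold 0.05. Intervals are 95% intervals of the moderated difference. Isoform pairs were compared by exact permutation tests, adjusted over 30 tests. The limma step was tested on simulated data. The number of arrays limits the precision.

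All 33 listed genes are accounted for. From the other lists, up to 2 rises and 2 falls per comparison among genes past the test could be named, and ADIPOQ, PPARG, MKI67, THY1 and TXNIP in any case. EPCAM, CDH1, KRT18, KRT8, B2M and PPIA fall outside this rule and were named after their values were seen. The members and lists were chosen with earlier results of these data known. Same-numbered arrays did not deviate together (correlations from -0.108 to 0.0867), so numbers were not taken as pairs. Alternatives were quantile normalization, a common median, omission of dim genes (mean under the 25th percentile), single probe sets, a trended robust fit, weighted arrays, fits of 2 groups alone, a replicate block, and omission of each array or of DED arrays 1 and 3. Drawing used Python 3.11.15 with matplotlib 3.10.9.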

Additional observations from a re-analysis of the deposited data

Results flagged for a closer look

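In 10 of 90 groups of 5 arrays (30 genes in 3 groups), 1 array stood apart from the other 4, with a gap to its neighbour over 0.71 of the whole range. Chance marks about 1 in 20 such groups. In DED, array 3 stood apart in 3 genes. SLC2A3 read 11.55 there against 10.73 to 10.95 in the others, TPI1 read 14.07 against 13.57 to 13.70, and PFKFB2, near background, read 4.99 against 5.81 to 5.94. In MA, PFKP read 12.88 in array 4 against 11.93 to 12.13, SLC2A3 read 8.89 in array 2 against 9.29 to 9.45, ALDOC read 9.95 in array 3 against 9.51 to 9.63, and FBP1, at background, read 4.80 in array 5 against 4.51 to 4.59. In MSC, PKM read 12.23 in array 3 against 12.63 to 12.73, ALDOC read 8.15 in array 5 against 8.38 to 8.44, and TALDO1 read 9.12 in array 1 against 9.21 to 9.24.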

How the results depend on the processing

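No called difference of a gene changed direction under any alternative run. The number of the 30 genes that rose from MA to DED was 2, 4 with array weights and 2 to 4 with 1 array left out, the highest without DED array 1. The other counts stayed within 1.5 times of those reported: with 1 array left out they ran from 9 to 10 rises and 5 to 6 falls for MA against MSC, 10 to 13 falls for DED against MA, and 5 to 6 rises and 6 to 9 falls for DED against MSC. With the replicate number as a block the counts were 10 and 6, 2 and 11, and 6 and 8, as without it, and no call of a gene changed. The exact sign-flip permutation test over same-numbered arrays cannot go below p = 0.0625, so the 16 of 30 pair tests that were called could not pass there. SLC2A1 in DED against MA passed in 9 of 24 alternative runs, quantile normalization (limma adjusted p = 0.044) and array weights (0.025) among them. In that comparison PKM passed in 4, quantile normalization (0.033) among them, and HK1 in 4. For DED against MSC GAPDH passed in 5, while ENO1 lost its call in 6, GPI in 3 and TALDO1 in 3. Some calls of other genes changed too. Without DED arrays 1 and 3, 3 genes rose and 13 fell from MA to DED. Each gene here has 1 probe set, so testing probe sets singly changed only the adjustment. Signal near background limits the 10 dim genes, whose changes may be understated.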

Other observations

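Glycogen genes were measured beside PGM1, which joins glycogen to glycolysis. Of 21 such genes 9 rose and 2 fell from MSC to MA (median 0.25), and 3 rose and 6 fell from MA to DED (median -0.19). Over all genes 15.4% rose and 17.6% fell in the first comparison, and 12.9% and 13.0% in the second. GYG2, a glycogenin that primes new glycogen, was higher in MA than in MSC by 3.34 (SE 0.14, limma adjusted p = 1.1e-13) and lower in DED than in MA (-1.96, SE 0.14, adjusted p = 9.5e-10). PYGM, the muscle glycogen phosphorylase, moved alike by 1.87 (SE 0.15) and -1.73 (SE 0.15), with MSC and DED means under the negative control median of 4.80. PPP1R3C, a scaffold that promotes glycogen synthesis, was lower in MA than in MSC (-0.87, SE 0.20) and higher in DED than in MA by 0.74 (SE 0.20). GYS1, glycogen synthase, was at 11.49 ± 0.18 (SD, n = 5) in MSC, 12.97 ± 0.11 in MA and 12.87 ± 0.42 in DED, and was above MSC in DED by 1.39 (SE 0.16, adjusted p = 5.2e-07).

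Genes often used as references were measured too. Of 6 listed ones, 3 fell from MSC to MA, 1 rose and 3 fell from MA to DED, and 1 rose and 5 fell from MSC to DED, with medians of -0.24, -0.19 and -0.62. Over all genes 33% passed the test from MSC to MA, 25.9% from MA to DED and 33.4% from MSC to DED. B2M was at 0.02 (SE 0.10, limma adjusted p = 0.92) for DED minus MA, and PPIA, TBP and GUSB did not pass for MA minus MSC. HPRT1 was lower by 0.65 on the log2 scale in MA than in MSC (-0.65, SE 0.12), and by 0.99 in DED than in MA (-0.99, SE 0.12). TBP was higher in DED than in MA by 0.62 (SE 0.13).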
